A study of Mus musculus with 64 samples.

Results

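The interferon beta gene Ifnb1 and the 4 genes that encode the chains of the type I and type II interferon receptors, Ifnar1, Ifnar2, Ifngr1 and Ifngr2, were followed in macrophages given bacterial lipopolysaccharide (LPS) or interferon. The members were chosen by gene name: for each, the brightest probe set annotated with that symbol alone was taken, and each of the 5 had exactly 1 such probe set. They are 5 of the 18820 genes that had a probe set of their own on the arrays.

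Macrophages were grown with CSF1 (10000 U/ml) from the bone marrow of male mice aged 7 to 8 weeks, plated on day 6 at 200000 cells per well of a 24-well plate and treated on day 7. In BALB/c macrophages the agents were IFN-beta or IFN-gamma, each at 10 U/ml, or LPS at 5 ng/ml. In C57BL/6 macrophages the agent was LPS, given at 0.5, 5 or 50 ng/ml. Each course was sampled at 1, 2, 4, 8 and 24 h and set against untreated cells of its strain at 0 h. Each of the 32 groups had 2 wells, and 250 ng of RNA from each well went onto its own Affymetrix array, 64 arrays in all. The labels give no number of mice, so the p-values below speak of the spread between wells, and untreated wells of later times were not used here.

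Interferon beta is the type I interferon that macrophages make first when Toll-like receptor 4 senses LPS: signalling through TRIF activates IRF3, which acts with NF-kappaB and AP-1 at the Ifnb1 promoter. The secreted protein binds the receptor made of IFNAR1 and IFNAR2 on the same and neighbouring cells, and the kinases TYK2 and JAK1 then set off the signal that switches on interferon-stimulated genes. Interferon gamma, made mainly by T cells and NK cells, binds a separate receptor made of IFNGR1, which holds the ligand, and IFNGR2, which brings in JAK2.

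The Ifnb1 promoter is shown because the LPS dose comparison below turns on this gene. In the RefSeq promoter table (mouse build GRCm38.p6), which held all 5 members, the stretch chr4:88522861-88522963 on the minus strand runs 5′ to 3′ from 169 to 67 bases before the gene start. Capitals mark, in this order, 3 matches to the IRF half-site AANNGAAA, a match to the kappaB motif GGGANNNNCC, a second kappaB match that lies on the opposite strand, and TATAAA; none of these matches overlap.
Ifnb1: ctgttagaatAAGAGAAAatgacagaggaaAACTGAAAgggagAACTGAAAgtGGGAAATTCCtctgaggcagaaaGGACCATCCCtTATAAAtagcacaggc
Over the 250 bases before the start of 27025 mouse promoters, read on both strands, 21.6% held at least 1 AANNGAAA and 4.4% at least 2, 17.3% held at least 1 GGGANNNNCC and 3.1% at least 2, and 13.0% held TATAAA. Ifnb1 had 3, 2 and 2 matches to these motifs in that window. The 4 receptor promoters held no AANNGAAA and no TATAAA. The Ifngr2 promoter had 2 overlapping kappaB matches on opposite strands, and the Ifnar2 promoter had 1 match to the motif TTCNNNGAA, which 7.2% of promoters held. A match is a description of letters, not a bound site. Ifnb1 lies on chromosome 4 and Ifngr1 on chromosome 10, while Ifnar2, Il10rb, Ifnar1 and Ifngr2 are 4 neighbouring protein-coding genes, in that order, on chromosome 16.

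The deposited values are array intensities, used here as log2. Medians per array ran from 25.6 to 29.0 intensity units and the 2 arrays of a group correlated at 0.992 to 0.998 over genes; the number of arrays limits the precision. A set of 11 arrays, both IFN-beta 4 h arrays among them, stood apart from the other 53 on probe sets without a gene, and 5 further arrays lay far from their replicate. The 0 h wells of the strains differed: BALB/c and C57BL/6 wells read 3.54 and 3.78 against 10.63 and 10.45 log2 for Nos2, the inducible nitric oxide synthase that LPS switches on. Changes from 0 h in C57BL/6 therefore start from cells that held LPS-type transcripts, whereas Ifnb1 itself read 3.25 and 3.39 in the BALB/c wells and 3.36 and 3.28 in the C57BL/6 wells. Of the 5 far arrays, 2 were 1 h arrays: LPS 50 ng/ml replicate 1 read 10.17 for Nos2 against 5.34 on replicate 2, and LPS 0.5 ng/ml replicate 1 read 8.12 against 3.98. In BALB/c, IFN-gamma 2 h replicate 1 and 4 h replicate 2 were far arrays. They read 7.13 and 9.75 for Nos2 against 4.52 and 7.25 on their replicates, which belong to the set of 11. Another, labelled C57BL/6 with LPS 5 ng/ml at 24 h (replicate 2), read 6.19 for H2-Ea and 9.21 for Hal, against 4.29 and 4.74 on its replicate. BALB/c arrays read 8.38 to 11.03 for H2-Ea and 9.19 to 12.07 for Hal, so that this array lay toward or at the BALB/c readings. Without it, the strain difference of Ifnar2 at 24 h was 0.44 (adjusted p = 0.014 by limma) and the 24 h change of Ifngr2 with LPS 5 ng/ml in C57BL/6 0.55 (1.1e-07). The 8 macrophage markers were all above 4.19, the 40th percentile of all log2 values, on every array, and array medians of the plasmacytoid dendritic cell, T or NK cell, B cell, granulocyte and fibroblast lists lay between 3.18 and 5.56 log2. Single markers moved with LPS. In each LPS course 2 of 6 fibroblast markers (Dcn and Pdgfrb) and 2 of 5 plasmacytoid dendritic cell markers (Cox6a2 and Ccr9) were called higher. Of all genes 9.11% to 17.2% were called in these courses. With LPS 5 ng/ml in BALB/c, Dcn was 4.12 and Pdgfrb 3.25 log2 above 0 h. Ngp, a granulocyte marker, fell in C57BL/6, though not at every time. Its highest group mean, 7.20 log2, was at LPS 50 ng/ml and 4 h. Every other granulocyte marker also had its highest group mean in a C57BL/6 LPS group, among them Ltf, Mpo and S100a8 at 50 ng/ml and 2 h. Siglech, another plasmacytoid dendritic cell marker, stayed between 3.34 and 4.54. Some markers were above 4.19 on every array: 2 of 5 for plasmacytoid dendritic cells (Ly6d and Cox6a2) and 1 of 4 for B cells (Cd79b). So were 2 of 7 for granulocytes, 2 of 6 for fibroblasts and 0 of 7 for T or NK cells. The part of these markers in the results was not tested.

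With LPS at 50 ng/ml, Ifnb1 rose sharply in C57BL/6 cells and was highest at 2 h. The wells read 3.34 and 3.34 log2 at 1 h, 5.54 and 5.92 at 2 h, 4.75 and 4.21 at 4 h, 3.82 and 4.03 at 8 h and 3.65 and 3.86 at 24 h. Both 2 h wells lay above every other of the 64 arrays, and all wells of 4 h, 8 h and 24 h lay above the 0 h wells. The mean at 2 h was 5.73 ± 0.27 (SD, n = 2), a difference from 0 h of 2.41 ± 0.25 log2 (SE), or 5.31-fold (95% interval 1.90 to 2.91 log2). A gene was called in a course where limma's F-test over its 5 times gave an adjusted p under 0.05 and the log2 change reached 1 at some time. Ifnb1 was called (adjusted p = 2.0e-10), as were 15.0% of all genes in this course. By limma's test of single times, 2 h had an adjusted p of 2.1e-09 (1.60% of all genes called there) and 4 h a change of 1.16 log2 with an adjusted p of 5.9e-04 (3.09% of genes).
The rise came between 1 h and 2 h, a step of 2.39 log2 (adjusted p = 3.1e-08 in limma's test, with 0.441% of genes called for that step). The 4 h level was 1.25 log2 below the 2 h level, a step of -1.25 (adjusted p = 3.2e-04, 2.49% of genes). Ifnb1 read above 4.19, the 40th percentile, on 9 of the 64 arrays, and on both wells of 2 groups, LPS 50 ng/ml at 2 h and at 4 h. Below that level there is no detection call, and how much of a 0 h reading is background is unknown. In RNA from whole wells, a few cells that make much Ifnb1 RNA and many cells that make little cannot be told apart.

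At 5 ng/ml the rise in C57BL/6 cells had the same time of its highest mean and was smaller. Ifnb1 read 3.84 and 3.50 log2 at 1 h, 4.12 and 4.49 at 2 h, 4.10 and 4.05 at 4 h, 3.82 and 3.59 at 8 h and 3.19 and 3.00 at 24 h. The 2 h well at 4.49 belongs to the set of 11 arrays, and the other, 4.12, lay close to the 4 h wells. The highest mean at 2 h thus rests largely on 1 well. The wells of 1 to 8 h all lay above the 0 h wells, and both 24 h wells lay below them. The difference from 0 h was 0.99 log2 at 2 h (95% interval 0.48 to 1.49, adjusted p = 0.008 in limma's test of that time), just under the minimum of 1, so that Ifnb1 was not called although its F-test passed (adjusted p = 5.9e-04). With each array centred on its median the change was 1.07 and called. Counted from 1 h, with the set of 11 arrays as a covariate and without the 5 far arrays, it was 0.50 (adjusted p = 0.065). In this course 14.3% of all genes were called and 46.4% passed the F-test. The 4 h change of 0.75 passed the test of its single time (adjusted p = 0.032), and the 8 h change of 0.39 did not (0.28); by p alone, 6.77% of genes passed at 2 h and 15.6% at 4 h.

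At 0.5 ng/ml no change in Ifnb1 was detected. The wells read 3.22 and 3.29 log2 at 1 h, 3.51 and 3.18 at 2 h, 3.50 and 3.36 at 4 h, 3.51 and 3.11 at 8 h and 3.07 and 3.16 at 24 h. These readings overlapped the 0 h wells at 1, 2 and 8 h, and the largest difference of a mean from 0 h was -0.20, at 24 h. The differences were 0.02 at 2 h (95% interval -0.48 to 0.53) and 0.11 at 4 h (-0.39 to 0.62), and limma's F-test gave an adjusted p of 0.92, in a course where 9.11% of genes were called.

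**Figure D1:**
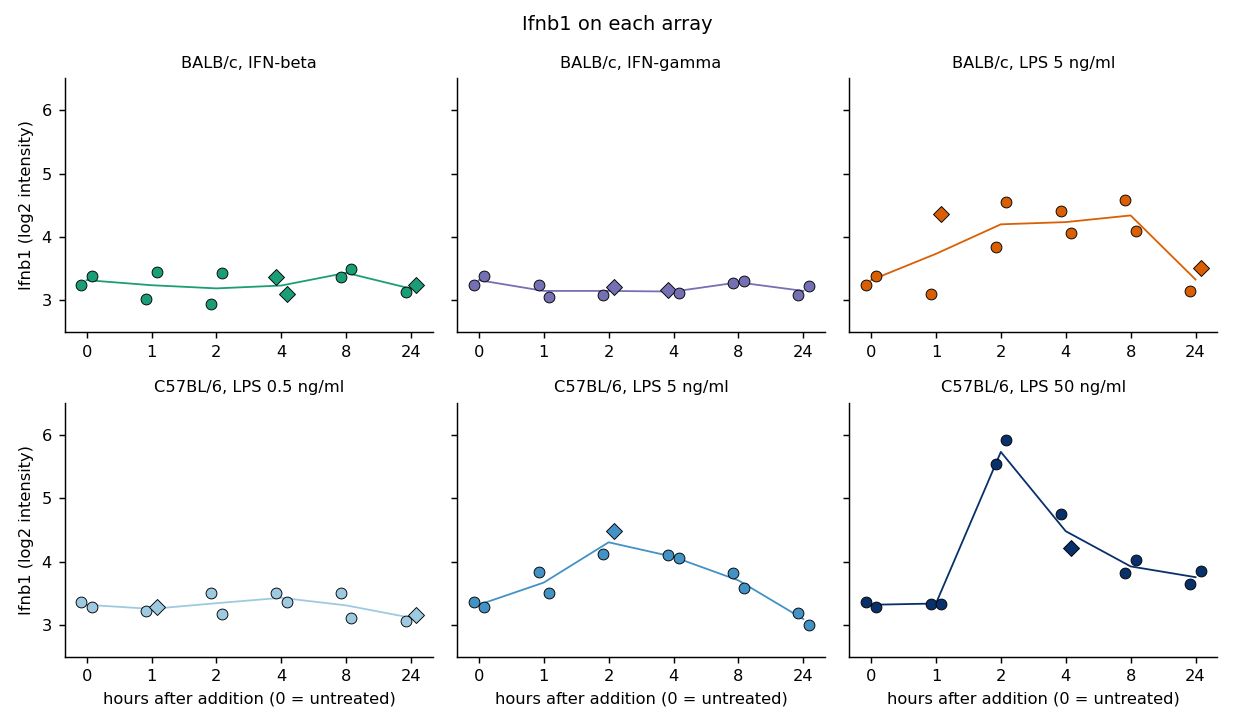
Ifnb1 in log2 intensity by hours of treatment in the 6 courses, BALB/c above and C57BL/6 below; points are single arrays (diamonds for the set of 11 that stood apart), and lines join the means of 2 arrays from 0 h on. The 2 h wells at LPS 50 ng/ml, 5.54 and 5.92, are the highest, and the panels for IFN-beta, IFN-gamma and LPS 0.5 ng/ml stay near 3.3.

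The doses were then set against each other at matching times, which uses no 0 h array. Ifnb1 was among the few genes that told 50 from 5 ng/ml: at 2 h it was 1.42 ± 0.25 log2 (SE) higher at 50 ng/ml, or 2.68-fold (95% interval 0.92 to 1.93). Limma's test at 2 h gave an adjusted p of 0.0057, and its F-test over the 5 times 0.0036, a comparison in which 0.228% of all genes were called over the course and 0.0159% at 2 h. That share is 3 genes, and the other two, named after their values were seen, were F3, the gene of the coagulation starter tissue factor, with 7.06 against 5.90 log2, and Gm13889, with 8.14 against 7.06. Without LPS 50 ng/ml 2 h replicate 2, or without LPS 5 ng/ml 2 h replicate 1, the Ifnb1 difference was 1.23 with an adjusted p of 0.055. When changes were counted from 1 h, the difference was 1.75 log2 with an adjusted p of 0.094.
Between 50 and 0.5 ng/ml Ifnb1 was 2.39 log2 higher at 2 h, or 5.23-fold (adjusted p = 4.1e-08 by limma, 0.292% of genes called at that time), and 1.05 higher at 4 h (0.0056, 0.951% of genes). The F-test gave 7.1e-09, with 3.72% of genes called. At 8 h and 24 h the differences of 0.61 and 0.64 did not pass (adjusted p = 0.087 and 0.14).
Between 5 and 0.5 ng/ml Ifnb1 was 0.96 log2 higher at 2 h (95% interval 0.46 to 1.47). The F-test passed with an adjusted p of 0.0083, the single time did not (0.053), and the change stayed under the minimum for a call, which 2.16% of genes met. Counted from 1 h, that difference was 0.55 with an adjusted p of 0.29, and without LPS 5 ng/ml 2 h replicate 2 it was 0.77 (0.05). By 4 h the difference of 50 over 5 ng/ml was 0.41 (adjusted p = 0.68), so a difference between these doses was shown at 2 h and not at 4 h.

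**Figure D2:**
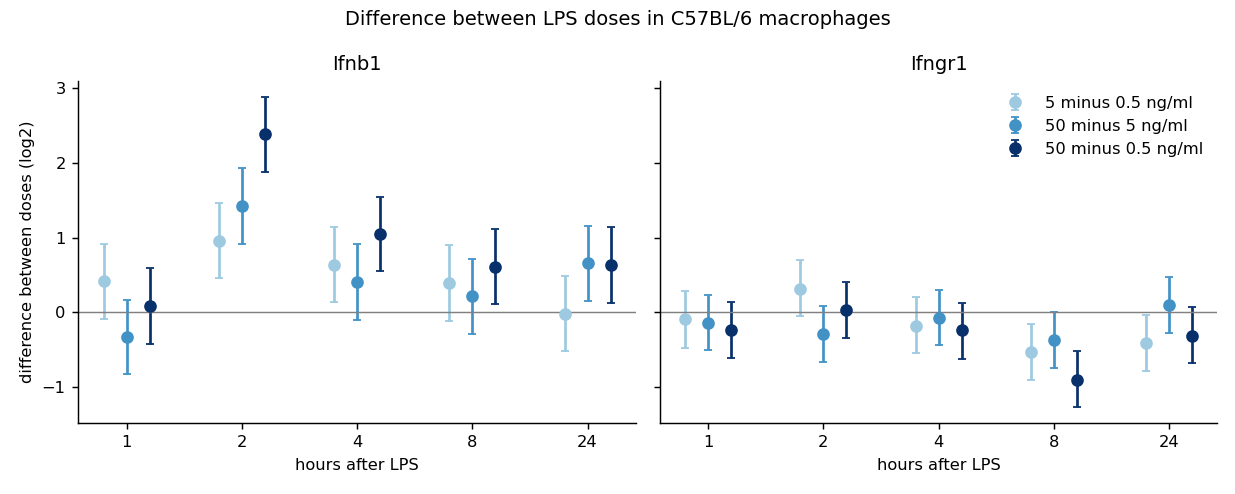
Differences between LPS doses in C57BL/6 cells for Ifnb1 and Ifngr1, in log2, at 1, 2, 4, 8 and 24 h; points are differences of means of 2 arrays and bars are limma's 95% intervals. Ifnb1 differs most at 2 h (1.42 for 50 minus 5 and 2.39 for 50 minus 0.5 ng/ml), and Ifngr1 at 8 h (-0.90 for 50 minus 0.5 ng/ml).

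In BALB/c cells LPS at 5 ng/ml raised Ifnb1 from 2 h to 8 h, with overlapping wells over those times. The wells read 3.10 and 4.37 log2 at 1 h, 3.85 and 4.55 at 2 h, 4.41 and 4.06 at 4 h, 4.59 and 4.09 at 8 h and 3.15 and 3.51 at 24 h. All 6 wells of 2 to 8 h lay above the 0 h wells, and the 1 h wells, of which replicate 2 belongs to the set of 11 arrays, lay on either side of them. The changes from 0 h were 0.88 at 2 h, 0.91 at 4 h and 1.02 at 8 h (95% interval at 8 h 0.52 to 1.52). Ifnb1 was called (F-test adjusted p = 3.6e-04), as were 17.2% of genes. The single times had adjusted p-values of 0.02, 0.0047 and 9.6e-04 in limma's tests, where 7.24% and 24.4% of genes passed by p alone at 2 h and 4 h, and 12.6% were called at 8 h. From 8 h to 24 h Ifnb1 fell by 1.01 log2 (adjusted p = 0.0016, 6.06% of genes called for that step). Fitted on the arrays of this course alone, the adjusted p was 0.11. The change stayed under the minimum of 1 without 0 h replicate 1 (0.95), without 8 h replicate 1 (0.77) and counted from 1 h (0.61).

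No difference between the strains in Ifnb1 passed at the dose both received, though the result depended on single wells. At 2 h the difference of BALB/c minus C57BL/6 was -0.11 log2 (95% interval -0.61 to 0.40). At 8 h it was 0.64 ± 0.25 (SE; interval 0.13 to 1.14), with 4.59 and 4.09 in BALB/c wells against 3.82 and 3.59 in C57BL/6 wells, groups that do not overlap but whose difference missed the threshold (adjusted p = 0.089 in limma's test). The F-test over the 5 times gave an adjusted p of 0.3, and that of the change from 0 h 0.57, with 5.53% and 4.68% of all genes called. Without 1 h replicate 1 or 2 of BALB/c, the first was 0.021 or 0.041. The highest mean fell at 2 h in C57BL/6 cells and at 8 h in BALB/c cells, yet the 2 h, 4 h and 8 h wells of BALB/c overlapped. In C57BL/6 the higher 2 h well was one of the set of 11 arrays.

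No change in Ifnb1 was detected with added interferon. With IFN-beta the wells lay between 2.95 and 3.50 log2 and with IFN-gamma between 3.06 and 3.30, against 3.25 and 3.39 at 0 h. The largest change with IFN-beta was -0.14 at 24 h (95% interval -0.64 to 0.37, F-test adjusted p = 0.95), in a course where 7.92% of genes were called and 37.4% passed by p alone; the largest with IFN-gamma was -0.18 at 4 h (interval -0.69 to 0.32), where 5.37% were called and 28.9% passed. Set against LPS at 5 ng/ml in the same strain, Ifnb1 differed by -1.01 log2 with IFN-beta at 2 h and by -1.05 with IFN-gamma. It was called lower in both comparisons, where 14.3% and 13.6% of genes were called. The call for IFN-beta was lost without its 2 h replicate 1 or without LPS 2 h replicate 2.

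Across the 32 groups the order of Ifnb1 means began with LPS 50 ng/ml at 2 h (5.73 ± 0.27 SD), whose wells did not overlap those of the next group. LPS 50 ng/ml at 4 h (4.48 ± 0.38), BALB/c LPS 5 ng/ml at 8 h (4.34 ± 0.36), C57BL/6 LPS 5 ng/ml at 2 h (4.30 ± 0.27) and BALB/c LPS 5 ng/ml at 4 h (4.23 ± 0.25) and 2 h (4.20 ± 0.50) followed, and these neighbours overlapped. Of the 31 pairs of neighbours in the order, 2 did not overlap. The genes whose means over the 32 groups were most like those of Ifnb1 were Sele (E-selectin), Depp1, Cdk5r1, Clcf1 (a cytokine of the interleukin-6 family) and Spry1, with Pearson correlations of 0.79, 0.78, 0.76, 0.72 and 0.71. Groups of 1 course share a strain and an agent, so these are descriptions.

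Among the interferon genes, nearly all calls were those of Ifnb1. The lists held 14 ligand genes of the type I, II and III families with a probe set of their own. Of these, Ifnb1 alone was called in courses counted from 0 h and in the comparisons of doses and stimuli. It was called with LPS 5 ng/ml in BALB/c and 50 ng/ml in C57BL/6. Of all genes 17.2% and 15.0% were called there, more than 1 in 14. In the other courses, with 5.37% to 14.3% of all genes called, none of the 14 was. The shares for 50 minus 5 and 50 minus 0.5 ng/ml were 0.228% and 3.72%. For IFN-beta and IFN-gamma minus LPS they were 14.3% and 13.6%. None of the 14 was called between strains. There the shares were 5.53% with LPS, 4.68% for the change from 0 h and 2.36% at 0 h. Counted from 1 h, Ifna13 was the 1 ligand gene called with LPS 5 ng/ml in C57BL/6 (1.02 ± 0.31 log2 at 8 h, adjusted p = 0.027 by limma). Of all genes 14.9% were called there. Of the 14, 4 were never above 4.19 log2 on any array, and Ifnl2, a type III interferon gene, was above it on all. Several interferon alpha genes are near copies of each other and share probe sets, which are not among the 14.

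The type I receptor chains, IFNAR1 and IFNAR2, varied far less than their ligand. Group means of Ifnar1 spanned 9.79 to 10.76 log2 and those of Ifnar2 10.65 to 11.60, against 3.10 to 5.73 for Ifnb1, with a pooled SD between wells of 0.11, 0.13 and 0.26. Levels of different genes come from different probe sets and are not compared. No change of either chain reached 1 log2 in any course. By the F-test alone, 2, 2 and 4 of the 5 members passed in the BALB/c courses of IFN-beta, IFN-gamma and LPS 5 ng/ml. Of all genes, 37.4%, 28.9% and 47.7% passed there. In C57BL/6, 3, 5 and 5 members passed at LPS 0.5, 5 and 50 ng/ml, where 40.1%, 46.4% and 46.4% of genes did.

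Ifnar1, the signalling chain that TYK2 binds, rose slowly with LPS in C57BL/6 cells. At 50 ng/ml its wells read 10.35 and 10.24 log2 at 1 h, 10.34 and 10.32 at 2 h, 10.51 and 10.65 at 4 h, 10.58 and 10.61 at 8 h and 10.74 and 10.65 at 24 h, against 10.28 and 10.32 at 0 h. The 4 h to 24 h wells all lay above the 0 h wells. The change was 0.39 at 24 h (F-test adjusted p = 0.0045). At 5 ng/ml it was largest at 8 h, 0.37 (adjusted p = 0.013), and at 0.5 ng/ml at 24 h, 0.46 (0.0034). At 5 ng/ml the adjusted p was 0.056 with quantile normalisation and 0.059 on the compared arrays alone. The 24 h value at 0.5 ng/ml rests on replicate 2, one of the set of 11 arrays, which read 11.06 beside 10.46. Without it the 24 h change was 0.16 and the F-test did not pass. The 8 h wells at that dose read 10.50 and 10.51. In BALB/c cells LPS gave 0.36 at 8 h, which did not pass (0.064) but did with the set of 11 as a covariate (9.3e-04).
With IFN-gamma Ifnar1 read 9.82 and 9.75 log2 at 24 h, against 10.19 and 10.04 at 0 h, a difference of -0.33 that did not pass (F-test adjusted p = 0.057) and did with the set of 11 as a covariate (8.8e-05). With IFN-beta the wells lay between 9.92 and 10.25 and the largest difference was -0.19 (adjusted p = 0.48, or -0.40 with 6.4e-04 when the set of 11, which holds both 4 h wells, was a covariate). Against LPS at the same time the interferons were lower: at 4 h IFN-beta differed by -0.54 log2 (adjusted p = 8.2e-06) and IFN-gamma by -0.69 (5.2e-09), comparisons in which 41.2% and 42.1% of genes passed by p alone. Between strains with LPS 5 ng/ml the largest difference of Ifnar1, BALB/c minus C57BL/6, was -0.20 at 24 h (F-test adjusted p = 0.28). With the set of 11 as a covariate it was -0.30 (0.0096).

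Ifnar2, the chain that holds the ligand and binds JAK1, ended higher after a day of LPS at 5 and 50 ng/ml. In BALB/c cells the 24 h wells read 11.42 and 11.78 log2 against 11.17 and 11.11 at 0 h, a change of 0.46 (F-test adjusted p = 0.0087). The higher well is one of the set of 11 arrays, and without it the change was 0.28 (adjusted p = 0.51). In C57BL/6 cells the 24 h wells read 10.87 and 11.28 at 0.5 ng/ml, 11.16 and 11.21 at 5 ng/ml and 11.12 and 11.21 at 50 ng/ml, against 10.80 and 10.77 at 0 h. All 6 lay above the 0 h wells. The changes were 0.29 (adjusted p = 0.4), 0.40 (0.034) and 0.38 (0.0056), and the second stayed at 0.37 to 0.42 but no longer passed when some single arrays were left out (adjusted p 0.052 to 0.13). Ifnar2 did not pass in the interferon courses, where its wells lay between 10.99 and 11.56 with IFN-beta and between 11.10 and 11.43 with IFN-gamma. The probe set does not tell the membrane-bound and soluble isoforms of Ifnar2 apart.
Ifnar2 read higher in BALB/c than in C57BL/6 cells with LPS at 5 ng/ml, by 0.42 log2 at 24 h (F-test over 5 times, adjusted p = 0.0074, with 31.2% of genes passing). Strain differences of the receptor genes are differences in the reading of 1 probe set each, and the probe sequences were not compared between strains. With each array centred on its median the difference was 0.41 (adjusted p = 0.065), and with the set of 11 arrays as a covariate it was 0.26. At 0 h the difference was 0.35 and did not pass (adjusted p = 0.1 by limma). It was again 0.35 and passed with the set of 11 as a covariate (4.5e-04) and on the other 53 arrays (9.5e-04).

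**Figure D3:**
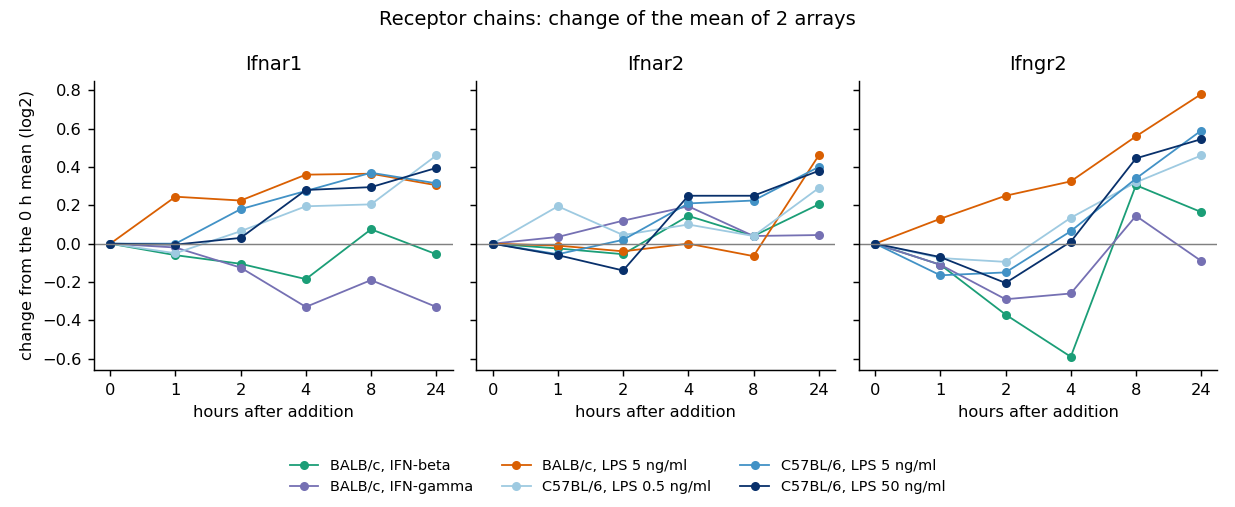
Changes of Ifnar1, Ifnar2 and Ifngr2 from the 0 h mean of the same strain, in log2, by hours of treatment in the 6 courses. Points joined by lines are means of 2 arrays, and single arrays are not drawn. Ifngr2 falls to -0.59 at 4 h with IFN-beta and ends 0.46 to 0.79 above 0 h in the LPS courses.

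Ifngr1 was the receptor gene that moved most, and its movement with LPS had an early rise and a late fall. In BALB/c cells at 5 ng/ml it read 10.29 and 10.90 log2 at 1 h, 10.46 and 10.48 at 2 h, 9.81 and 10.01 at 4 h, 8.37 and 8.44 at 8 h and 9.31 and 9.95 at 24 h, against 9.97 and 9.82 at 0 h. The 1 h and 2 h wells all lay above 0 h, and the 8 h wells lay below every other of the 64 arrays. The higher 1 h well and the higher 24 h well belong to the set of 11 arrays. In every group with 1 such array, that array read higher for Ifngr1 than its replicate. Ifngr1 was 0.70 log2 higher at 1 h (adjusted p = 0.016, or 0.39 with 0.026 on the other 53 arrays) and 1.48 ± 0.18 (SE) lower at 8 h, a change of -1.48 or 2.80-fold (adjusted p = 1.2e-08 by limma, F-test 3.0e-12). The fall lay between 4 h and 8 h, a step of -1.50 (4.4e-08, 3.83% of all genes called for that step), and from 8 h to 24 h it regained 1.22 log2 (1.5e-06).
In C57BL/6 cells Ifngr1 again dropped between 4 h and 8 h at 5 and 50 ng/ml. At 50 ng/ml the wells read 10.70 and 10.73 at 1 h, 11.05 and 10.90 at 2 h, 10.65 and 11.06 at 4 h, 9.66 and 9.78 at 8 h and 10.18 and 10.16 at 24 h, against 10.49 and 10.47 at 0 h. The wells of 1 h to 4 h lay above the 0 h wells and those of 8 h and 24 h below them. The step from 4 h to 8 h was -1.13 log2 (adjusted p = 5.6e-06, 5.54% of genes called), and the change from 0 h at 8 h was -0.76 (F-test 1.1e-06). The 4 h well at 11.06 belongs to the set of 11 arrays.
At 5 ng/ml that step was -0.83 (adjusted p = 5.6e-04, 22.6% of genes passing by p alone). The rise at 2 h, 0.79 log2, was the largest change there (F-test 6.6e-07). The 2 h wells of 11.14 and 11.39 gave the highest Ifngr1 mean of all 32 groups, 11.27 ± 0.18 (SD, n = 2). The well at 11.39 is one of the set of 11 arrays. The other, 11.14, lay close to the LPS 0.5 ng/ml wells at 4 h, 11.08 and 11.11. At 0.5 ng/ml Ifngr1 was 0.62 log2 higher at 4 h (F-test 0.011) and its step to 8 h was -0.48, which did not pass (0.081).

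**Figure D4:**
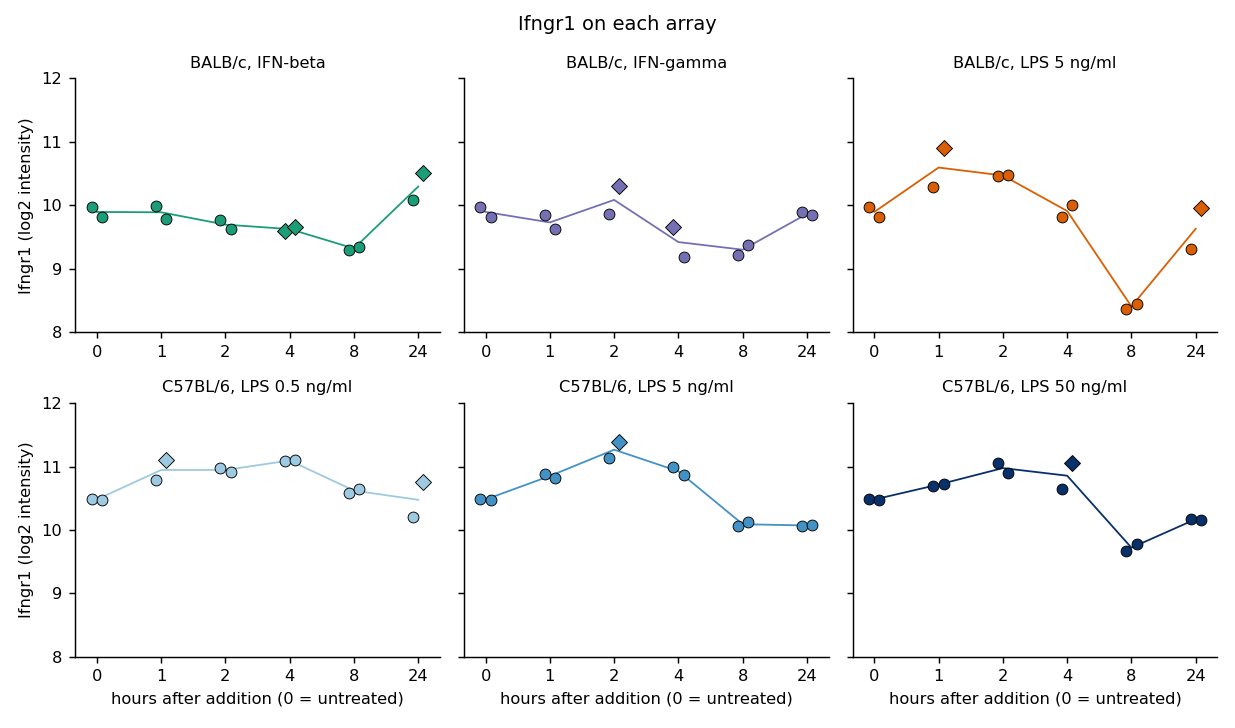
Ifngr1 in log2 intensity by hours of treatment in the 6 courses, BALB/c above and C57BL/6 below; points are single arrays (diamonds for the set of 11) and lines join means of 2. With LPS 5 ng/ml in BALB/c the 8 h wells, 8.37 and 8.44, are the lowest of all.

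At 8 h Ifngr1 was lower at the highest than at the lowest dose. Ifngr1 read 9.66 and 9.78 log2 at 50 ng/ml and 10.59 and 10.65 at 0.5 ng/ml, a difference of -0.90 (95% interval -1.27 to -0.52) with an adjusted p of 3.6e-04 in limma's test, where 17.4% of genes passed by p alone. The F-test over 5 times gave 0.0031, with 25.3% of genes passing, and counted from 1 h the difference was -0.66 (0.089). The 5 ng/ml wells, 10.06 and 10.12, lay between: 5 minus 0.5 was -0.53 (F-test 0.06, 17.6% of genes passing) and 50 minus 5 was -0.37 (0.73, 0.962% passing). With the set of 11 arrays as a covariate both passed (1.3e-04 and 0.014).
The strains differed in their Ifngr1 readings. With LPS at 5 ng/ml the difference of BALB/c minus C57BL/6 wells was -0.80 log2 at 2 h, -1.02 at 4 h and -1.68 at 8 h, the last 3.21-fold. In limma's tests the 4 h difference had an adjusted p of 7.9e-05 (2.67% of genes called) and the 8 h difference 5.8e-09 (2.28%), with 4.3e-10 for the F-test over 5 times. Part of this was there at 0 h, where BALB/c wells read 9.97 and 9.82 against 10.49 and 10.47, a difference of -0.59 (adjusted p = 0.033; 2.36% of genes called and 9.57% passing at 0 h). When any one of the 4 arrays was left out the 0 h difference was -0.66 to -0.51, with an adjusted p of 0.083 to 0.24. Counted from 0 h of each strain, the change at 8 h still differed by -1.09 ± 0.26 log2 (SE; 95% interval -1.62 to -0.56), with an F-test adjusted p of 0.0011 and 15.6% of genes passing.

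The interferons lowered Ifngr1 moderately and for a time. With IFN-beta it read 9.30 and 9.34 log2 at 8 h and 10.08 and 10.51 at 24 h, and with IFN-gamma 9.22 and 9.38 at 8 h and 9.89 and 9.84 at 24 h. The 8 h wells lay below the 0 h wells in both courses. The changes at 8 h were -0.57 (F-test adjusted p = 0.0012) and -0.59 (0.0049), and after IFN-beta the gene regained 0.98 log2 by 24 h. The IFN-beta 24 h well at 10.51 belongs to the set of 11 arrays. At 8 h Ifngr1 stayed higher with IFN-beta than with LPS by 0.91 log2 (F-test 5.0e-07) and with IFN-gamma by 0.89 (5.1e-06). The genes most like Ifngr1 over the 32 groups were Parvg, Cgnl1 and Arl2bp (Pearson correlations 0.89, 0.89 and 0.86).

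Ifngr2, the chain that brings in JAK2, rose late with LPS in both strains and at every dose. In BALB/c cells the wells read 11.81 and 11.81 log2 at 1 h, 11.93 and 11.93 at 2 h, 12.07 and 11.94 at 4 h, 12.25 and 12.23 at 8 h and 12.45 and 12.47 at 24 h, against 11.71 and 11.65 at 0 h. Each of these wells lay above both 0 h wells. At 24 h the change was 0.79 in BALB/c (F-test adjusted p = 1.2e-09), and in C57BL/6 0.46 at 0.5 ng/ml (6.3e-07), 0.59 at 5 ng/ml (6.4e-10) and 0.54 at 50 ng/ml (3.8e-10).
IFN-beta first lowered Ifngr2. The wells read 11.59 and 11.55 at 1 h, 11.33 and 11.29 at 2 h, 11.07 and 11.11 at 4 h, 12.02 and 11.95 at 8 h and 11.79 and 11.90 at 24 h. The 1 h to 4 h wells lay below 0 h and the later ones above it. The change was -0.37 at 2 h (adjusted p = 0.0052) and -0.59 at 4 h (7.7e-07 by limma, 24.8% of genes passing by p alone), followed by a step of 0.89 up to 8 h (1.8e-10, 21.6% of genes). Both 4 h arrays belong to the set of 11. With that set as a covariate the 4 h change was -0.58, and on the other 53 arrays, which hold no IFN-beta 4 h well, the 2 h change was -0.37 (F-test 1.8e-07).
With IFN-gamma the largest change of Ifngr2 was -0.29 at 2 h (F-test 5.2e-04, and 0.16 on the compared arrays alone). Of the 2 h wells, replicate 1 (11.49) is one of the 5 far arrays and replicate 2 (11.29) one of the set of 11. Of the 4 h wells, replicate 1 (11.28) belongs to the set of 11 and replicate 2 (11.56) to the 5 far arrays. At 4 h the difference of IFN-beta minus IFN-gamma was -0.33 (F-test adjusted p = 0.0047), where 3.96% of genes were called and 18.3% passed. On the other 53 arrays, which hold no IFN-beta 4 h well, the largest difference lay at another time, was 0.20 and did not pass. With LPS 5 ng/ml at 2 h Ifngr2 read 11.93 and 11.93 in BALB/c against 11.55 and 11.70 in C57BL/6, a difference of 0.30 (F-test 0.0063, and 0.11 with each array centred on its median). The genes most like Ifngr2 were Rarg (a retinoic acid receptor), Tlr1 (a Toll-like receptor) and Mocs1, with Pearson correlations of 0.92, 0.92 and 0.9. Over the 32 groups the means of Ifngr2 correlated with those of Ifnar1 at 0.74, and those of Ifnar2 with those of Ifngr1 at -0.63.

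In the order of the 32 group means the receptors had few clear steps. Ifngr1 was highest with LPS 5 ng/ml at 2 h in C57BL/6 and lowest with LPS 5 ng/ml at 8 h in BALB/c (8.41 ± 0.05 SD), and neither end overlapped its neighbour, LPS 0.5 ng/ml at 4 h at 11.10 and IFN-gamma at 8 h at 9.30. Ifngr2 was highest with LPS at 24 h in BALB/c (12.46) and lowest with IFN-beta at 4 h (11.09). Ifnar1 ran from 9.79 with IFN-gamma at 4 h and 24 h to 10.76 ± 0.42 with LPS 0.5 ng/ml at 24 h. Ifnar2 ran from 10.65 with LPS 50 ng/ml at 2 h to 11.60 ± 0.25 with LPS at 24 h in BALB/c. Of the 31 pairs of neighbours, 4 did not overlap for Ifnar1, 3 for Ifnar2, 6 for Ifngr1 and 8 for Ifngr2.

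Genes of the pathway around the members were described by counts. Of 21 measured genes for sensing LPS and inducing Ifnb1, 9 rose, 2 fell and 10 were not called with LPS 5 ng/ml in BALB/c (17.2% of all genes called). In C57BL/6 the counts were 5, 2 and 14 at 0.5 ng/ml, 6, 3 and 12 at 5 ng/ml and 9, 2 and 10 at 50 ng/ml (9.11%, 14.3% and 15.0% of all genes). Counted from 1 h, 3 rose and 2 fell with LPS 5 ng/ml in BALB/c (15.0% of all genes called). In C57BL/6 6 rose and 1 fell at 0.5 ng/ml, 9 rose and 2 fell at 5 ng/ml and 8 rose and 1 fell at 50 ng/ml. Of all genes 10.4%, 14.9% and 14.6% were called there. Irf1, an interferon regulatory factor, was 3.54 ± 0.12 log2 (SE) above 0 h at 4 h in BALB/c, and 2.01, 2.61 and 2.75 above it in C57BL/6 at 0.5, 5 and 50 ng/ml. Irf7, which carries type I interferon induction beyond the first wave, was 1.35 log2 higher at 50 than at 0.5 ng/ml at 4 h (adjusted p = 0.0044 by limma).
Of 6 measured genes that signal directly at the receptors, 4 rose in BALB/c with LPS 5 ng/ml and 4 with IFN-beta (17.2% and 7.92% of all genes called). In the LPS course Jak2, the kinase of IFNGR2, was 3.43 ± 0.19 log2 above 0 h at 24 h, and Stat2, Tyk2 and Stat3 were 2.28, 1.53 and 1.23 above it at their largest. The median change of the 6 was -0.06, 0.06, 0.67, 1.38 and 1.20 log2 at 1, 2, 4, 8 and 24 h, against -0.05, -0.03, -0.07, -0.04 and -0.03 for all genes. In C57BL/6, counted from 0 h, 1, 3 and 3 rose at LPS 0.5, 5 and 50 ng/ml (9.11%, 14.3% and 15.0% of all genes called). Stat2 alone fell, by 1.55, 2.27 and 2.27 log2 at 2 h. Counted from 1 h, 3, 5 and 4 rose and none fell (10.4%, 14.9% and 14.6% of all genes called).
Of 10 measured brakes on the receptors, 5 rose and none fell in each BALB/c course (7.92%, 5.37% and 17.2% of all genes called with IFN-beta, IFN-gamma and LPS). In C57BL/6, counted from 0 h, 2, 4 and 3 rose and 2, 1 and 1 fell at LPS 0.5, 5 and 50 ng/ml. Of all genes 9.11%, 14.3% and 15.0% were called there. Usp18 was among those that fell at each dose (-2.40, -2.60 and -2.30 log2). Counted from 1 h, 4, 4 and 3 rose and none fell (10.4%, 14.9% and 14.6% of all genes called). Socs3, which inhibits cytokine receptor kinases, was 4.38 log2 above 0 h with IFN-beta, 5.23 with IFN-gamma and 5.72 ± 0.29 with LPS 5 ng/ml at their largest. Socs1, which inhibits JAK kinases at both receptors, was 3.93, 3.65 and 3.09 above it. Usp18, which blocks signalling at IFNAR2, was 2.73 above it with LPS. Between 50 and 0.5 ng/ml, where 3.72% of all genes were called, 4 of the 10 were called higher: Socs3 by 2.03 log2 at 1 h, and Socs1, Usp18 and Cish by 1.90, 1.82 and 1.56 at 4 h. Of 7 related receptor chains, Il10ra and Il20rb rose by 1.41 and 1.49 log2 with LPS in BALB/c, and Il10rb, the neighbour of Ifnar1, ranged over group means of 11.18 to 11.97.

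The 18 early targets of the type I receptor were set beside Ifnb1, as levels in C57BL/6 because 0 h wells of that strain were high. Ifit1, an antiviral protein that binds foreign RNA, read 6.44 and 6.89 log2 in BALB/c and 10.55 and 10.27 in C57BL/6 wells at 0 h. Counted from 0 h, 4, 5 and 7 of the 18 were called higher and 14, 13 and 11 lower at LPS 0.5, 5 and 50 ng/ml (9.11%, 14.3% and 15.0% of all genes called). Counted from 1 h, all 18 were called higher and none lower at each dose (10.4%, 14.9% and 14.6% of all genes called). At LPS 0.5, 5 and 50 ng/ml the group median of the 18 was 8.15, 8.13 and 8.25 log2 at 2 h. The mean of Ifnb1 was highest at that time at 5 and 50 ng/ml. At 4 h the group median was 9.42, 10.61 and 11.11, and at 8 h 11.50, 11.92 and 12.05. The median followed the dose order at 4 h, and the doses lay closer together by 8 h. At 0.5 ng/ml the median was also higher at 8 h than at 2 h, while no change in Ifnb1 was detected; that step was not tested for the list. Ifit1 read 6.57 and 6.87 at 2 h, 9.51 and 9.43 at 4 h and 11.26 and 11.41 at 8 h at that dose. At 50 ng/ml it read 7.79 and 8.03, 11.38 and 11.76, and 11.96 and 12.12 at those times.
Between 50 and 0.5 ng/ml 13 of the 18 were called higher and none lower, against 3.72% of all genes called. Their median difference at 4 h was 1.73 log2, against -0.02 for all genes, and Mx1, an antiviral GTPase, differed by 2.46 ± 0.40 (adjusted p = 3.6e-05 by limma). In BALB/c all 18 rose with IFN-beta and all 18 with LPS 5 ng/ml (7.92% and 17.2% of all genes called). With IFN-beta the median rise was 1.76, 2.35, 3.57, 3.14 and 1.67 log2 at 1, 2, 4, 8 and 24 h. With LPS it was 0.33, 0.22, 3.14, 3.48 and 3.30, against -0.05, -0.03, -0.07, -0.04 and -0.03 for all genes. At 2 h of LPS, Ifnb1 was already 0.88 log2 above 0 h.

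**Figure D5:**
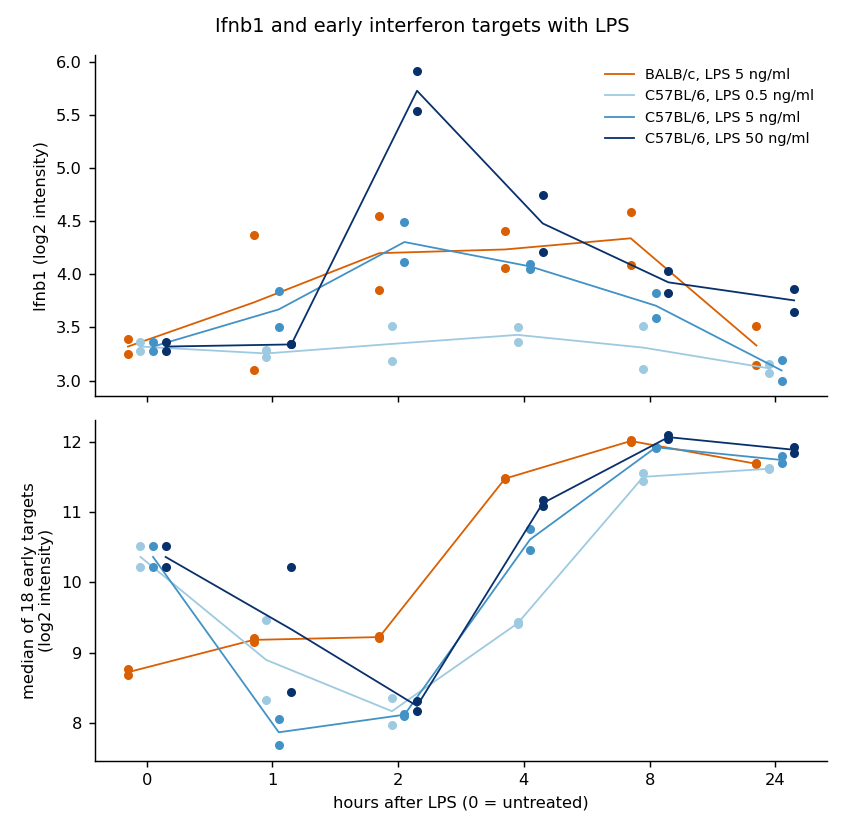
Ifnb1 and the median of 18 early targets of the type I receptor, in log2 intensity, by hours of LPS in the 4 LPS courses; points are single arrays and lines join means of 2. At 50 ng/ml Ifnb1 is highest at 2 h (5.73) and the targets reach 11.11 at 4 h and 12.05 at 8 h; at 0.5 ng/ml Ifnb1 stays flat while the targets reach 11.50 at 8 h.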

How the data were processed

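Per the submitters' processing notes, the arrays were processed with Affymetrix Expression Console 1.1. The deposited values are linear intensities that the authors had already summarised per probe set; background correction, normalisation and genome build are not given in the sources used here, so no array coordinates are printed. The series' platform annotation named 1 gene for 21218 of 35556 probe sets, several for 1881 and none for 12457. Of the first, 21185 matched the RefSeq table by identifier. The brightest probe set per gene was kept (18820 genes).

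The log2 of the deposited intensity was fitted with limma 3.58.1 (R 4.3.3) as 32 group means over 64 arrays, with 32 residual degrees of freedom. Each course, dose, strain and stimulus comparison had an F-test over its 5 times and limma's moderated test per time, with Benjamini-Hochberg adjustment over all genes for each test. A call needs an adjusted p under 0.05 and an absolute log2 change of at least 1; "passed by p alone" drops that minimum. Errors are SD between 2 wells or limma's SE. The fit was tested on simulated data. Tables and figures used Python 3.11.15, pandas 2.3.3, numpy 2.4.6 and matplotlib 3.10.9.

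All 5 members were tested in every comparison, though not every result is printed. The genes most like a member are those with the highest correlation of group means among 2410 genes with an SD of at least 0.5, 5 for Ifnb1 and 3 for a receptor that varied enough. Members, gene lists and tests were chosen with earlier results of these data known. Listed genes without a usable probe set were not used here: 3 of 24 for induction, 1 of 7 for receptor signalling and 1 of 11 for brakes. Replicate numbers do not pair the wells: over 496 pairs of groups, the correlation of same-numbered deviations ran from -0.47 to 0.55 with a median of 0.00. Alternatives covered scaling, dim genes, probe sets, arrays in the fit, variance model, minimum change, baseline, the replicate block, the set of 11 arrays, the 5 far arrays and each replicate.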

Additional observations from a re-analysis of the deposited data

Results flagged for a closer look

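The response of Ifngr1 to LPS at 5 ng/ml differed between the strains by limma's test of that difference: at 8 h the change from 0 h in BALB/c minus that in C57BL/6 was -1.09 log2 (-1.48 in BALB/c and -0.39 in C57BL/6). Neither the 0 h nor the 8 h arrays of these groups belong to the set of 11, and the part of the high LPS-type transcripts in the C57BL/6 0 h wells was not tested.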

How the results depend on the processing

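No called result changed direction. Of those not called, some took the other sign, but at other times, so a reversal at the same time is not shown. Ifngr2 for IFN-beta minus IFN-gamma was -0.33 at 4 h. On the other 53 arrays, which hold no IFN-beta 4 h well, its largest difference was 0.20. Ifnar2 for 50 minus 0.5 and 5 minus 0.5 ng/ml was -0.25 in both at 1 h. Counted from 1 h, which subtracts that difference, its largest values at later times were 0.46 and 0.43. They were 0.37 and 0.33 when the set of 11 was also a covariate and the 5 far arrays were left out. For Ifnb1 with LPS 5 ng/ml in C57BL/6, the change was 1.07 with each array centred on its median and 1.09 with quantile normalisation, which made it called, and it was called at 0.99 with no minimum change. The 5 minus 0.5 ng/ml difference was likewise called at 1.09 (quantile) and 0.96 (no minimum). For Ifnb1 with LPS 5 ng/ml in BALB/c, the call was lost on the compared arrays alone (1.02, adjusted p = 0.11 by limma), from 1 h (0.61) and from 1 h with the set of 11 as a covariate and without the 5 far arrays (0.75), a setting chosen after seeing the data; 50 minus 5 ng/ml was then 1.75 and 1.89 and not called. The number of members called with LPS 5 ng/ml in C57BL/6 was 1 after centring or quantile normalisation, and 1 for 5 minus 0.5 ng/ml after quantile normalisation. It was 1 with LPS 5 ng/ml in BALB/c on the compared arrays alone, from 1 h and in the combined setting, 2 with LPS 50 ng/ml in the combined setting, and 0 for 50 minus 5 ng/ml in both. With no minimum it was 2, 2 and 4 for IFN-beta, IFN-gamma and LPS in BALB/c (37.4%, 28.9% and 47.7% of all genes). It was 3, 5 and 5 for LPS 0.5, 5 and 50 ng/ml (40.1%, 46.4% and 46.4%). For 50 minus 0.5 and 5 minus 0.5 ng/ml it was 2 and 1 (25.3% and 17.6%). For strain with LPS and at 0 h it was 3 and 1 (31.2% and 9.57%), and between stimuli 1, 4 and 4 (18.3%, 41.2% and 42.1%). Leaving out single replicates gave Ifnb1 changes of 0.77 to 1.27 (LPS 5 ng/ml, BALB/c), 0.80 to 1.18 (C57BL/6), 0.77 to 1.15 (5 minus 0.5) and 1.23 to 1.61 (50 minus 5), and counts of 1 to 2, 0 to 1, 0 to 1 and 0 to 1, with 0 to 2 for IFN-beta minus LPS and 1 to 2 for IFN-gamma minus LPS. With the replicate block, Ifnb1 at LPS 50 ng/ml changed by 2.41 and all 545 results kept their call or stayed uncalled; by p alone, Ifnar1 with IFN-gamma reached 0.046 and Ifngr1 for 5 minus 0.5 ng/ml 0.043. Leaving out dim genes removes Ifnb1, so it gives no value there. Of 39 member results past 0.05 by p alone, 25 kept this under every setting run and 14 lost it under some. The causes were not tested.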

Other observations

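Besides the 14 ligand genes with a probe set of their own, 22 probe sets carried the symbols of several interferon genes (5 of the alpha, 1 of the lambda and 16 of the zeta family). Their group means lay between 3.76 and 6.14 log2, and the largest rise from 0 h was 0.64 log2, in a probe set shared by Ifna2 and Ifna11 at LPS 50 ng/ml and 2 h, the group with the highest Ifnb1.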
